A study of Mus musculus with 2 samples.

Results

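The genes described here are 42 drivers and brakes of the cell division cycle, chosen by symbol: 26 that carry division forward, 13 that restrain it, and Mdm2, Plk2 and Plk3, which belong to neither class. A gene was read from the probe sets that the platform annotation assigns to it alone. This gave 87 probe sets for 39 of the 42 genes, out of 18193 named genes on the array, and all 39 had a probe set bright enough to count as measured. Ccnb1, Btg3 and Trp53 had no such probe set, and their signals are not analysed here. Wild type CD-1 mice, 24 to 28 days old, all received 5 IU of pregnant mare serum gonadotropin, which grows a cohort of follicles, and, 48 h after it, 5 IU of the human hormone chorionic gonadotropin (hCG), which starts ovulation. At 2 h after hCG they were given ulipristal acetate, a modulator of the progesterone receptor, or oil as vehicle. Whole ovaries were taken at 11 h, and neither the injection this time counts from nor the number of mice per sample is given in the labels. There was 1 array per treatment, so no spread between animals can be given and no test made, and every value below describes these 2 samples.

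The cell cycle is driven by cyclins, which switch on cyclin-dependent kinases, and it is held back by small proteins that bind and block those kinases. Granulosa cells of growing follicles divide under follicle-stimulating hormone, with cyclin D2 as a main driver in the mouse. After the ovulatory surge of luteinizing hormone, which hCG mimics, they leave the cycle as they turn into luteal cells, and kinase inhibitors such as Cdkn1a and Cdkn1b are known to accumulate. The comparison sets the ovulating ovary with the drug against the one without it.

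Values are MAS5 signals, in arbitrary units on a linear scale, and each ratio is log2 of ulipristal over vehicle, with signals under 7.17 raised to that floor. The trimmed mean signal was 150.001 on both arrays, so a change shared by most genes would not show. Of 11364 measured genes, 3.34% were higher by 2-fold or more on the ulipristal array and 1.56% lower by as much, which together made 4.90%. These shares were 380 and 177 genes, and the split was 267 and 199 after quantile normalization and 261 and 203 after lowess centring. A ratio above 0 was found for 60.0% and below 0 for 40.0%, and the median was 0.09. The ratio depended on brightness: with measured genes cut into 10 equal groups by mean signal (deciles), its median was 0.28 in the dimmest and -0.12 in the brightest. The 18S ribosomal RNA features were 2.41-fold brighter on the vehicle array, and the 3′ to 5′ signal ratio of Gapdh was 1.20 there and 0.87 on the ulipristal array. The part of these differences in the results below was not tested. In whole ovaries, fewer cells of a type and less RNA per cell cannot be told apart.

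Of the 11 measured brakes, 2 were at least 2-fold lower on the ulipristal array and 0 were higher by that much, against 1.56% and 3.34% of all measured genes. These were Cdkn1a and Btg2. Of the 25 measured drivers, 0 were 2-fold or more apart in either direction, against 4.90%. Among Mdm2, Plk2 and Plk3, the kinase Plk3 was at least 2-fold lower. The median log2 ratio was 0.13 for drivers and -0.10 for brakes, beside 0.09 for all measured genes. Above 0 were 17 of 25 drivers and 5 of 11 brakes, against 60.0%.

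Cdkn1a encodes the inhibitor that binds and blocks cyclin-kinase complexes in response to p53 and to differentiation signals. On its brightest probe set, 1424638_at, the signal was 660 with vehicle and 187 with ulipristal. A second probe set, 1421679_a_at, read 223 and 97.7. Both were therefore higher on the vehicle array, with log2 ratios of -1.82 and -1.19, the first a 3.53-fold difference. Among all 11364 measured genes the ratio of Cdkn1a ranked 36 from the lowest. In genes of the same signal decile, the middle 95% of ratios ran from -0.62 to 0.75.

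Btg2, an antiproliferative gene of the BTG/TOB family that is induced early by many stimuli, read 885 with vehicle and 343 with ulipristal on its brighter probe set, 1448272_at. The other probe set, 1416250_at, read 367 and 160. The vehicle array was again the higher one on both, and the log2 ratios of -1.37 and -1.19 lay closer together than those of Cdkn1a. The brighter probe set was 2.58-fold lower with ulipristal and ranked 82 from the lowest. Its signal decile had a middle 95% from -0.75 to 0.69.

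Plk3, a polo-like kinase induced by stress and growth factors, was much dimmer. Its 1 probe set, 1434496_at, read 61.5 with vehicle and 26.8 with ulipristal, which is 2.30-fold lower and a log2 ratio of -1.20. This lay just below the middle 95% of its signal decile, which ran from -1.04 to 1.68. With 50 added to every signal in place of the floor the ratio was -0.54, and it did not reach 2-fold. The ulipristal signal was under the filter of 30.8, so Plk3 counted as measured only through its vehicle signal and had to be lower to be counted. Cdkn1a, Btg2 and Plk3 were the 3 of 39 genes whose ratio lay outside the middle 95% of their signal decile. By construction that range holds 95% of all measured genes, so a count of 3 of 39 outside it is near the background.

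**Figure D1:**
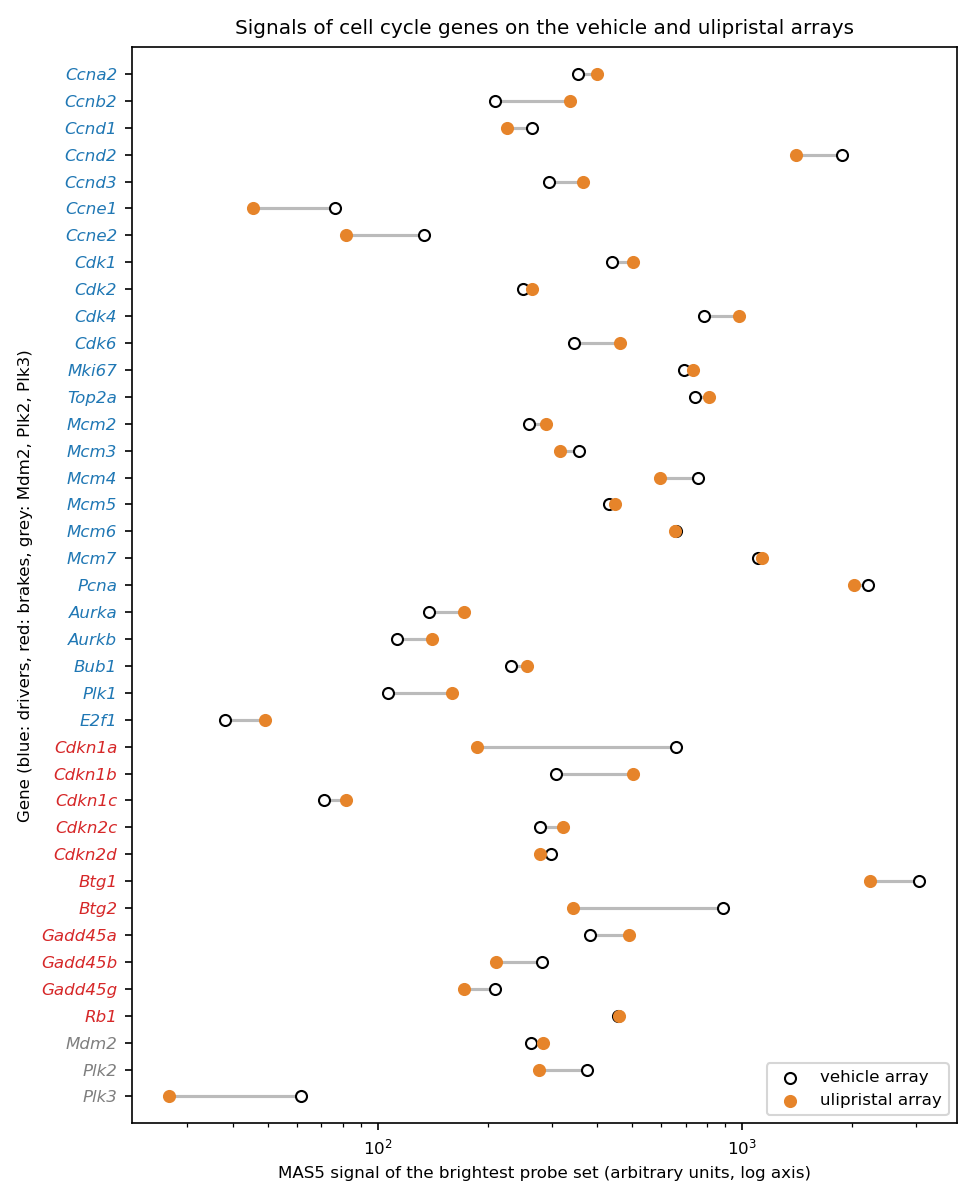
MAS5 signal of each gene's brightest probe set (arbitrary units, log axis) on the vehicle array (open circles) and the ulipristal array (filled circles), with 1 array per treatment. The widest gaps are those of Cdkn1a (660 and 187), Btg2 (885 and 343) and Plk3 (61.5 and 26.8), followed by Ccne1 (76.1 and 45.4) and Ccne2 (134 and 82.0), all with vehicle on the right. Cdkn1b (308 and 501) has the widest gap with ulipristal on the right.

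The promoter windows of the 3 lower genes are printed because these genes had the lowest ratios of the set, and those of Cdk1 and Ccnb2 as drivers for contrast. Each window covers 250 bases before and 50 after an annotated gene start, from RefSeq on build GRCm38.p6, and is written 5′ to 3′ on the strand of the gene. Windows were matched by symbol for 34 of the 42 genes, 39 windows in all, and these include Ccnb1, Btg3 and Trp53. Both strands were searched for each motif, and a match is only a run of letters. Cdkn1a has 2 annotated starts. The upstream one, at chr17:29090729-29091028 on the + strand, has in capitals the matches to the p53 decamer, the repeated unit of elements that bind p53.
Cdkn1a upstream start: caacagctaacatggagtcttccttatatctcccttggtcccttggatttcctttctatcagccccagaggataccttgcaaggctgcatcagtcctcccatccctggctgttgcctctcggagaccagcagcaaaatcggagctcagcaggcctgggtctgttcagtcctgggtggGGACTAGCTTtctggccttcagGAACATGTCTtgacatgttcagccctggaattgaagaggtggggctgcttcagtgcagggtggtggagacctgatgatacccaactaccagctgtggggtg
The downstream start, at chr17:29093519-29093818 on the + strand, has GGGCGG, the box bound by Sp1, in capitals.
Cdkn1a downstream start: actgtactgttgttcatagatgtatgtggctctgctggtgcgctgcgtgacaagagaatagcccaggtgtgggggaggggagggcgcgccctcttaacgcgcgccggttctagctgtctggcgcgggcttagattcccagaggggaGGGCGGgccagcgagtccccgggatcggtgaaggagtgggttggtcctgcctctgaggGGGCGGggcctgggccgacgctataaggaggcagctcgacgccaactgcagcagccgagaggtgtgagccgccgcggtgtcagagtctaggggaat
In Btg2, at chr1:134079106-134079405 on the - strand, capitals mark CCAAT and TGACGTCA, the palindromic cyclic AMP response element. That element lay 166 bases before the annotated start.
Btg2: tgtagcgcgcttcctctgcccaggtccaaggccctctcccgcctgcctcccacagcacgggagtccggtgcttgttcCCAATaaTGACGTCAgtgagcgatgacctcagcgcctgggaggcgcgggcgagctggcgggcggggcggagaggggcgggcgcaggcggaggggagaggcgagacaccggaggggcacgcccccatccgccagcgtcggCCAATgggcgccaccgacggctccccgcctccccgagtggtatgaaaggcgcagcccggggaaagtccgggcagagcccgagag
In Plk3, at chr4:117133914-117134213 on the - strand, capitals mark TGACG, one arm of that element, which overlaps the full one wherever the full one occurs.
Plk3: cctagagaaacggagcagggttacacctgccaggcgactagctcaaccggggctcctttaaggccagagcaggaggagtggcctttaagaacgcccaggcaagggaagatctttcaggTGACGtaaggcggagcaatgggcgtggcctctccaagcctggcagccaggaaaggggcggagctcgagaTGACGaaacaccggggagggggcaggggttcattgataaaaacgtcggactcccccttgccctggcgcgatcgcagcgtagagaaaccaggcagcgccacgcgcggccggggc
In Cdk1, at chr10:69352863-69353162 on the - strand, and Ccnb2, at chr9:70421505-70421804 on the - strand, capitals mark CCAAT or its complement ATTGG, and TTTGAA, the cell cycle genes homology region found in promoters of mitotic genes.
Cdk1: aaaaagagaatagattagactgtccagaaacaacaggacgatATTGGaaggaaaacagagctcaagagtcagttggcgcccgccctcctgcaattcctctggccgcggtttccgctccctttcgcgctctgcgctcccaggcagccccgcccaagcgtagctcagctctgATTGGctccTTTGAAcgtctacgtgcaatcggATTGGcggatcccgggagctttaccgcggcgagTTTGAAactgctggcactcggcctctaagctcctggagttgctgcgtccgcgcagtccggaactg
Ccnb2: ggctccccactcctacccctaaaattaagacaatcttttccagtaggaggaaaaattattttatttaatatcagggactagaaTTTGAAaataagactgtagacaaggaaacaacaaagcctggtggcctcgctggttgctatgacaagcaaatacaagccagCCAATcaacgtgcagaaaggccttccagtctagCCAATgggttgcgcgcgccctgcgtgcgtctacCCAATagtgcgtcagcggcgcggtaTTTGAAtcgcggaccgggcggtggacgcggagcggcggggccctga

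Over all 39 windows of the set, CCAAT was present in 17 of 22 driver windows and 11 of 14 brake windows, beside 37.4% of the 32851 windows in the table. TTTGAA was present in 7 of 22 driver windows and 0 of 14 brake windows, beside 17.9% of all windows. The windows with TTTGAA were those of Aurka, Ccnb2, Cdk1, Mcm2, Mki67, Plk1 and Top2a. The E2F site letters TTTCCCGC and TTTGGCGC were each present in 3 of 22 driver windows and 0 of 14 brake windows, beside 1.07% and 0.51% of all windows. TGACGTCA was present in the windows of Btg2, Plk2 and Mcm5, and in 1.79% of all windows. The arm TGACG was present in 11 of 22 driver windows, 3 of 14 brake windows and all 3 windows of Mdm2, Plk2 and Plk3, beside 20.8% of all windows. GGGCGG was present in 19 driver and 9 brake windows, beside 35.7%, and the p53 decamer in 0 driver and 4 brake windows, beside 8.36%. The letters TGANTCA, bound by AP-1, were present in 0 of the 39 windows, beside 7.81% of all windows. The letters ACANNNTGT, the core of a progesterone receptor element, were present in 1 of the 39, beside 6.85%. Median GC content was 58.7% in driver windows, 62.2% in brake windows and 52.7% in all windows, and the part of base composition in these shares was not tested.

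The other kinase inhibitors of the Cip/Kip family did not share the direction of Cdkn1a. Cdkn1b, which holds cells at rest by blocking cyclin E and its kinase, read 308 with vehicle and 501 with ulipristal. It was thus brighter with ulipristal, 1.63-fold and 0.70 on the log2 scale. A dimmer probe set that was not measured read 18.7 and 28.7, also higher with ulipristal. Cdkn1c, an inhibitor transcribed from the maternal allele, read 71.0 and 81.8. Within this family the log2 ratios of Cdkn1a and Cdkn1b stood at -1.82 and 0.70, the lowest and the highest of all 39 genes.

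The INK4 inhibitors block the cyclin D kinases Cdk4 and Cdk6. Cdkn2c read 278 with vehicle and 322 with ulipristal, and Cdkn2d read 298 and 279. These pairs differed by 1.16-fold and 1.07-fold in opposite directions. Rb1, the retinoblastoma protein that holds E2F factors inactive until the kinases phosphorylate it, read 457 and 458. Its ratio was 0.0036, and it was below 0 under median, quantile and lowess centring.

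Btg1, the closest relative of Btg2 in the set, was brighter on the vehicle array on all its probe sets. The signals were 3068 and 2241 on the brightest, 1759 and 1084 on the next and 49.4 and 20.2 on the dimmest, vehicle first. The log2 ratios were -0.45, -0.70 and -1.29, so that only the dimmest of these 3 passed 2-fold. Its ulipristal signal was under the filter of 30.8. That probe set thus counted as measured only through its vehicle signal and had to be lower to be counted. With it, the spread of 0.84 was the widest among the probe sets of any 1 gene here.

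The Gadd45 genes encode small stress sensors that bind cyclin B and its kinase and activate stress kinases. Gadd45a read 382 with vehicle and 490 with ulipristal. Gadd45b read 282 and 210, and a second probe set read 235 and 172. Gadd45g read 209 and 172. Gadd45a was thus higher with ulipristal by 1.28-fold, whereas Gadd45b and Gadd45g were lower by 1.34-fold and 1.21-fold. A further Gadd45b probe set, too dim to be measured, read 8.82 and 29.2, against the direction of the brighter pair.

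Mdm2, the ubiquitin ligase that degrades p53 and is itself a p53 target, read 264 with vehicle and 283 with ulipristal on its brightest probe set. The second measured one read 108 and 95.1, in the opposite direction. Plk2, a stress-responsive relative of Plk3, read 375 and 278, which was 1.35-fold lower with ulipristal. Plk2 and Plk3 were thus lower on the ulipristal array, while Plk1, the mitotic member of the family, was higher (107 and 160, a log2 ratio of 0.58).

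Among the drivers, the D cyclins couple growth signals to the first kinases of the cycle. Ccnd2, the D cyclin of granulosa cells, had signals of 1885 after vehicle and 1407 after ulipristal. This was a log2 ratio of -0.42, and its 6 measured probe sets ran from -0.57 to 0.19, with 5 below 0. Ccnd1 read 265 and 227, with 3 probe sets from -0.27 to 0.02. Ccnd3 read 296 and 367, and its second measured probe set, at 30.8 and 35.3, was also higher with ulipristal. A dimmer Ccnd3 probe set that was not measured read 19.7 and 2.76, against that direction. The D cyclins therefore went both ways and differed by at most 1.34-fold on their brightest probe sets and by at most 1.48-fold on any measured one.

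The E cyclins, which start DNA synthesis with Cdk2, had the lowest ratios among drivers. Ccne1 read 76.1 with vehicle and 45.4 with ulipristal, which was 1.68-fold lower. Its second probe set read 52.3 and 54.5, so that without the brighter one, which can bind several transcripts, the log2 ratio was 0.06 in place of -0.75. Ccne2, with 1 probe set, read 134 and 82.0, a 1.63-fold difference and a log2 ratio of -0.71. Both E cyclins lay inside the middle 95% of genes of like signal, whose lower ends were -0.82 and -0.75.

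The cyclins of later phases stood on the other side of 0. Ccna2, cyclin A, read 353 with vehicle and 399 with ulipristal. A second probe set read 149 and 207. Ccnb2, a B cyclin of mitosis, read 210 and 337, which was 1.60-fold higher with ulipristal and the highest ratio among drivers, 0.68. The 7 measured cyclins thus ranged from -0.75 to 0.68, with a median of -0.23.

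The 4 cyclin-dependent kinases all had ratios above 0 on their brightest probe set, from 0.08 to 0.42. Cdk1, the kinase of mitosis, read 440 with vehicle and 500 with ulipristal, and Cdk2 read 251 and 266. Cdk4 read 787 and 979, and its 3 probe sets ran from -0.02 to 0.31. Cdk6 read 345 and 462 on the brighter probe set and 219 and 168 on the other, log2 ratios of 0.42 and -0.38. For Cdk6 the direction hence depended on the probe set.

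The replication genes lay close to 0. Mcm2 to Mcm7 encode the 6 subunits of the helicase that opens DNA, and Pcna the sliding clamp of the polymerases. Pcna, the brightest of these, read 2216 with vehicle and 2028 with ulipristal. Mcm4 had the lowest ratio, with 755 and 593 on 1 probe set and 424 and 291 on the other, log2 ratios of -0.35 and -0.54. Mcm3 read 356 and 317, and all 3 of its measured probe sets were lower with ulipristal. Its dimmer probe sets split, at 7.05 and 33.1 on 1 of them and 13.3 and 8.08 on the other. Mcm2 read 260 and 289 and was higher on both probe sets. Mcm5 (431 and 448), Mcm6 (660 and 656) and Mcm7 (1108 and 1137) differed by at most 1.04-fold on their brightest probe sets. Their other measured probe sets had log2 ratios of 0.34 for Mcm5, -0.37 for Mcm6 and -0.19, 0.21 and 0.34 for Mcm7. The signs of the brightest probe sets of these last 3 turned under centring, for Mcm5 and Mcm7 by the median and for Mcm6 by quantiles and by lowess.

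The mitotic kinases, by contrast with the replication genes, were all above 0 on their measured probe sets. Aurka, which builds the spindle poles, read 138 with vehicle and 172 with ulipristal. Aurkb, the kinase of the chromosomal passenger complex, read 113 and 141, and its second probe set 103 and 106. Bub1, a kinase of the spindle checkpoint, read 232 and 256. With Plk1 the 4 ratios ran from 0.15 to 0.58 with a median of 0.32, while the 7 replication genes ran from -0.35 to 0.15 with a median of -0.01. All 4 ratios were above 0 under each alternative setting that measured the gene. Probe sets too dim to be measured went the other way, at 14.0 and 6.91 for Aurka and 12.1 and 2.83 for Bub1. Both of these ulipristal signals were under the floor. Dim genes tended above 0 in general, and the median of the signal decile that holds Aurka, Aurkb and Plk1 was 0.20.

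The widely used proliferation markers Mki67 and Top2a were nearly level between the arrays. Mki67, the antigen Ki-67, read 692 with vehicle and 731 with ulipristal, which was 1.06-fold higher. Top2a, the topoisomerase that untangles chromosomes, read 744 and 812 on its brightest probe set and 80.3 and 53.8 on a dimmer one, log2 ratios of 0.13 and -0.58. E2f1, the transcription factor that turns on replication genes, was dim. It read 38.1 and 49.0 on 1 measured probe set and 34.7 and 45.2 on the other. A further E2f1 probe set, too dim to be measured, read 10.3 and 4.31, in the opposite direction. Both measured E2f1 ratios, 0.36 and 0.38, were close to the median of 0.28 for genes as dim.

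**Figure D2:**
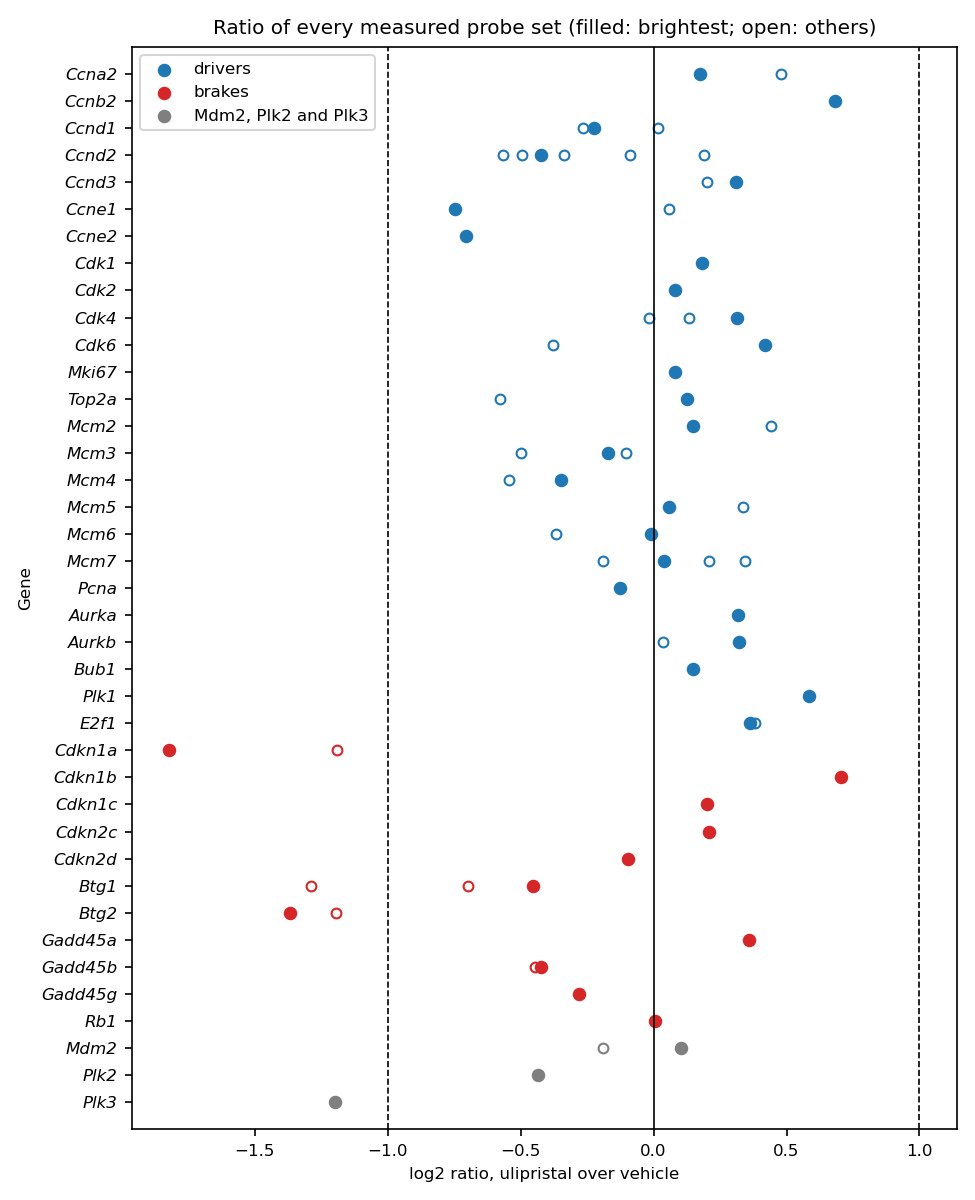
Log2 ratio of ulipristal over vehicle for each of the 70 measured probe sets, by gene, with filled points for the brightest probe set and open points for the others. Dashed lines mark 2-fold. Both probe sets of Cdkn1a and of Btg2 lie left of the line at -1, while no driver's probe set reaches either line.

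Of the 21 genes with more than 1 measured probe set, 13 had all of them on the same side of 0 and 8 did not. The 8 were Ccnd1, Ccnd2, Ccne1, Cdk4, Cdk6, Top2a, Mcm7 and Mdm2. The median width between a gene's lowest and highest log2 ratio was 0.30. Probe sets of 1 gene share the RNA sample and the array, so this width is no measure of the spread between animals. The ratios of Cdkn1a and Btg2 were below -1.19 on every probe set and so exceeded it.

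At 1.5-fold, 5 of the 39 genes were lower with ulipristal, beside 4.58% of all measured genes, and 2 were higher, beside 12.3%. The lower ones were Cdkn1a, Btg2, Plk3, Ccne1 and Ccne2, and the higher ones Cdkn1b and Ccnb2. Plk1 was just inside that limit, at 1.499-fold.

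**Figure D3:**
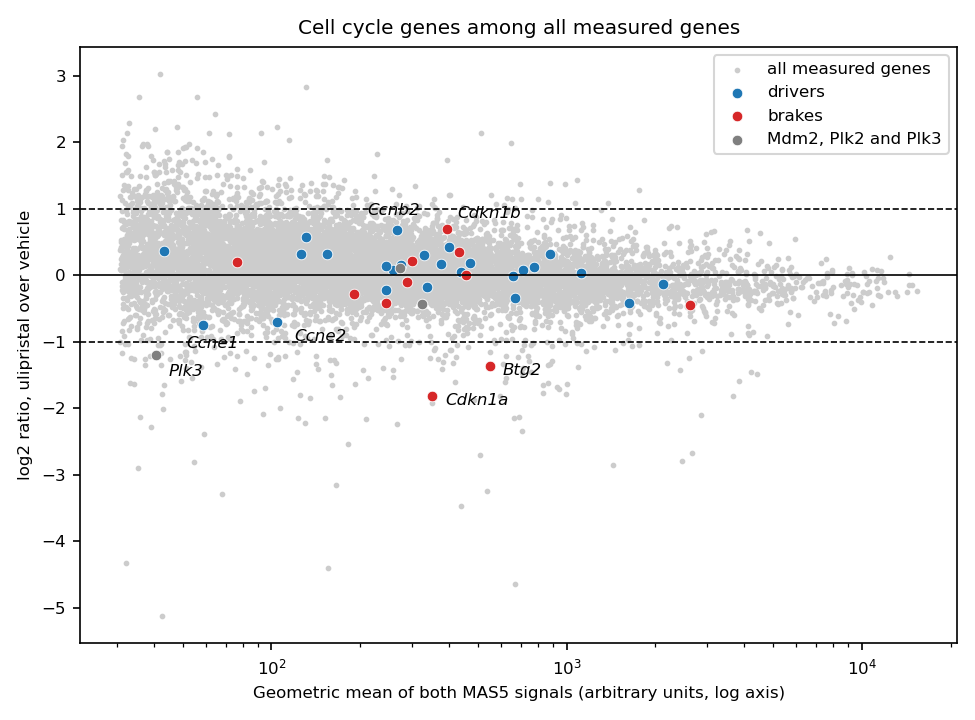
Log2 ratio of ulipristal over vehicle against the geometric mean of both signals (arbitrary units, log axis) for all 11364 measured genes in grey and the 39 cell cycle genes in colour. Dashed lines mark 2-fold. Most coloured points lie between the dashed lines. Cdkn1a and Btg2 at mid signal and the dimmer Plk3 lie below the lower one, as do some grey points.

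Further genes of the pathway were taken from lists that hold none of the 42. In replication and nucleotide supply, 0 of 23 measured genes were 2-fold apart in either direction, against 4.90% of all measured genes. The median log2 ratio was -0.15 and 13 were below 0, beside 0.09 and 40.0% for all measured genes. The lowest was Cdc6, which loads the helicase (110 with vehicle and 61.7 with ulipristal), then Rrm2, a subunit of ribonucleotide reductase (785 and 508), and Gins1 of the replication fork (175 and 128). Only the brightest Rrm2 probe set was this low, and another stood at 0.08. The highest were the thymidine kinase Tk1 (94.3 and 143), the polymerase subunit Pole (79.3 and 116) and the clamp loader subunit Rfc4 (148 and 181), which had a second probe set at -0.25.

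In mitosis, 0 of 30 measured genes were 2-fold apart, against 4.90% of all measured genes. The median was 0.11 and 22 were above 0, beside 0.09 and 60.0% for all measured genes. The highest were the kinesin Kif20a (86.4 and 125), the spindle factor Tpx2 (160 and 223) and Birc5, survivin (321 and 414). The lowest were the centrosome kinase Nek2 (103 and 63.7), securin, Pttg1 (819 and 555), and Ect2, which positions the cleavage furrow (220 and 176). Pttg1 also had a probe set at 0.44. The medians of replication and mitosis, -0.15 and 0.11, stood on the same sides of each other as those of the replication members and mitotic kinases above, and the difference was not tested.

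Other cyclins and kinases (16 measured) had a median of -0.01, with 0 genes 2-fold apart. The kinase-binding proteins Cks2 (2095 and 1261) and Cks1b (2238 and 1706) and Cdk8 of the Mediator complex (1106 and 766) were the lowest. Cdk5 (241 and 334), the phosphatase Cdc25b (86.4 and 119) and Cdk9, an elongation kinase (779 and 907), were the highest. Cdk5 also had a second measured probe set at 1.06, which passed 2-fold, but the gene was read from its brightest one. E2F factors, pocket proteins and their partners (17 measured) had a median of 0.08 and also 0 genes at 2-fold. Tfdp2, a partner of E2F (235 and 392), Max, the partner of Myc (125 and 203), and Mybl2 (38.7 and 57.6) were the highest. Myc (737 and 516), Lin54 (232 and 163) and E2f5 (310 and 234) were the lowest, although E2f5 had a probe set at 0.70.

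The other brakes (19 measured) had a median of 0.10, beside 0.09 for all measured genes, and 0 genes at 2-fold. With 4.90% of all measured genes at 2-fold in either direction, a count of 0 in this or any other list of this size is near the background. Tob1, a relative of the BTG proteins, was the lowest (2136 and 1559), followed by the checkpoint kinase Chek1 (262 and 209) and Btg4, a BTG gene of oocytes (166 and 139). The phosphatase Cdkn3 (45.6 and 77.3), the inhibitory kinase Pkmyt1 (65.4 and 103) and Fzr1, which directs cyclin destruction (108 and 144), were the highest. Cdkn1a and Btg2 are known p53 targets. A list of p53 targets outside the 42 genes had 19 with a probe set of their own. Of these, 15 were measured and 0 were 2-fold apart. Any further p53 targets among the 42, such as Mdm2, were left out. The median of the 15 was -0.04, and on the brightest probe sets the range was from -0.36 to 0.57. The lowest were Rrm2b (247 and 193), Tigar (78.0 and 66.5) and Apaf1 (273 and 239), and the highest Fas (33.3 and 49.2), Phlda3 (101 and 138) and Ddb2 (118 and 150). Rrm2b, however, had a second probe set at 0.67, and Ddb2 had one at 0.90.

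Btg2 is also an immediate early gene, one that responds to hormones and growth factors within minutes without new protein. Of 22 other such genes measured, 10 were at least 2-fold lower with ulipristal and 0 higher, against 1.56% and 3.34% of all measured genes, and 22 of 22 were below 0, against 40.0%, with a median log2 ratio of -0.94. The lowest were Egr3 (492 and 55.3), Egr2 (438 and 75.03) and Ccn1 (1589 and 315). The highest were Jun (393 and 362), Fosl2 (2543 and 2316) and Klf10 (283 and 232), and Fosl2 was above 0 after quantile normalization. Fosl1 (86.4 and 17.7) and Atf3 (70.1 and 29.3) had ulipristal signals under the filter of 30.8. They thus counted as measured only through their vehicle signals and had to be lower to be counted. Btg2 at -1.37 and Cdkn1a at -1.82 lay within the range of this list, from -3.15 to -0.12. That immediate early genes were low on this ulipristal array was known when the list was drawn up, so it is no independent evidence.

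**Figure D4:**
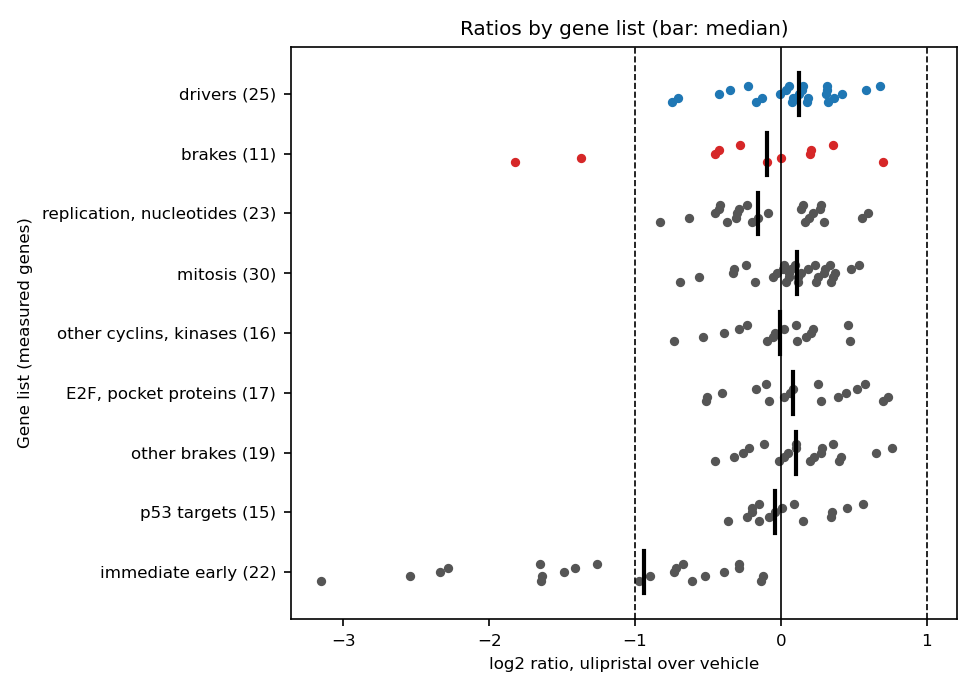
Log2 ratio of ulipristal over vehicle for each measured gene (points) and the median (bar) of the drivers, the brakes and 7 further lists, with the number of measured genes in brackets. Dashed lines mark 2-fold. All points of lists other than the brakes and the immediate early genes lie between the dashed lines.

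Markers of the cell types in a whole ovary differed between the arrays as well. At 2-fold, 3.34% of all measured genes were higher and 1.56% lower, and in the dimmest decile 14.2% were higher. Of 11 measured granulosa markers 5 were at least 2-fold higher with ulipristal, and their summed signal was 14329 with vehicle and 18605 with ulipristal. For cells of the oviduct 7 of 8 measured markers passed 2-fold upward, with sums of 3950 and 6493. Most of both sums was Ovgp1 (3641 and 5642), which did not reach 2-fold. Foxj1 (19.1 and 75.1) and Ccdc39 (27.4 and 72.9) had vehicle signals under the filter of 30.8. They thus counted as measured only through their ulipristal signals and had to be higher to be counted. The same held for the endothelial marker Tie1 (24.8 and 76.8) and the adipose marker Cidec (28.7 and 67.9). The surface epithelium sums were 1423 and 2162 (1 of 9 higher), the theca sums 3365 and 4991 (2 of 6 higher and 1 lower) and the adipose sums 2019 and 2913 (1 of 5 higher). Oocyte markers, with 1 of 14 at least 2-fold higher, summed to 2528 and 2908. Endothelial markers (2 of 10 higher) gave 2240 and 2712, macrophage markers (1 of 10 higher) 1974 and 2338, smooth muscle markers (0 of 9) 18457 and 20155 and red cell markers (0 of 2) 168 and 183. Neutrophil markers were lower in sum, at 527 and 353, with 2 of 3 measured ones lower by 2-fold or more and 1 higher. Lymphocyte markers summed to 109 and 88.6, with 1 measured, and Cd3e, Cd4 and Nkg7 were under the floor on both arrays, as was the adipose marker Lep. The part of these cell types in the values of the cell cycle genes was not tested.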

How the data were processed

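Per the labels' protocols, 100 ng of whole-ovary RNA per sample was labelled for Affymetrix mouse genome arrays. The authors deposited linear probe set intensities. MAS5 and version 1 of Affymetrix Expression Console are named in the submitters' processing notes. The equal trimmed means (2% left out at each end) bear out a global scaling by the authors. Detection calls were not used here. The number of arrays, 1 per group, limits the precision.

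Of 45101 probe sets, 64 were controls and 34945 named 1 gene in the platform annotation, 932 several and 9160 none. All 39 members found had their gene identifiers in the RefSeq table. Signals under the 25th percentile of non-control values (7.17) were raised to it, and log2 was taken. A probe set was measured when its mean log2 signal reached the median of non-control probe sets, a signal of 30.8. A gene was read from its brightest measured probe set, and called at 2-fold or more. Signal deciles were cut over the measured genes.

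The members, lists and thresholds were chosen with earlier results of these data known. The text names every member and, from each pathway list, the 3 highest and 3 lowest measured genes. Fosl1 and Atf3 are named besides, for the limit that the filter sets on them. The steps were tested on simulated arrays. These had larger changes than those of Cdkn1a, Btg2 and Plk3, and a noise not fitted to these data. They therefore do not show how reliable the ratios here are. Alternatives were 3 centrings, other floors, filters, probe set rules and thresholds, and a pseudocount. Tools were numpy 2.4.6 and pandas 2.3.3 for values, statsmodels 0.14.6 for lowess (fraction 0.3) and matplotlib 3.10.9 for plots, in Python 3.11.15.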

Additional observations from a re-analysis of the deposited data

How the results depend on the processing

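No paired analysis was possible because there was 1 array per group and the result comes from no test. Every comparison rests on 2 arrays, and dim genes such as Plk3 and E2f1 carry the least weight. Cdkn1a and Btg2 were at least 2-fold lower under all 10 alternatives that kept the 2-fold threshold, from -1.88 to -1.51 for Cdkn1a and from -1.43 to -1.25 for Btg2. Plk3 reached 2-fold under 7 of 9. Its ratio was -0.98 with the floor at the 50th percentile and -0.54 with 50 added, and it was not measured with the filter at the 75th percentile, so the count of lower genes among Mdm2, Plk2 and Plk3 was 0 under these 3 settings. Of 460 values of members under alternatives, 442 kept sign and call, 10 changed sign without being called, 4 lost a call, 4 gained one and 0 called ones changed sign. Many of the 442 were fixed by construction, since such floors and filters do not alter the ratios of bright genes. The median of drivers stayed between 0.07 and 0.14 and that of brakes between -0.19 and -0.08.

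The counts over all genes, 380 higher and 177 lower, were 54 and 98 with 50 added, 1025 and 460 with no filter, 58 and 101 with the filter at the 75th percentile, 1402 and 520 at 1.5-fold and 60 and 57 at 3-fold. At 1.5-fold, 1 driver was higher and 2 lower, and 1 brake was higher. At 3-fold, 1 brake was lower, and 0 of Mdm2, Plk2 and Plk3. In the pathway lists at 1.5-fold, replication had 1 higher and 2 lower, mitosis 1 lower, other cyclins and kinases 1 lower, E2F and pocket proteins 2 higher, other brakes 2 higher and immediate early genes 16 lower. With the median over probe sets 1 gene of the E2F list was higher, and with no filter 2 p53 targets were higher. These shifts follow from the settings' own construction, in which the threshold, the genes counted or, with 50 added, the ratios of dim genes differ, except that the cause of the E2F change was not tested.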
